A study of Mus musculus with 4 samples.

Results

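The genes described here build, sense, move and export cholesterol and build fatty acids. They were taken from a list of 42 named genes, and every one was matched to the count files through its gene identifier and GENCODE symbol, so the set is 42 of 50600 counted genes. The genes were listed by function, in the knowledge of earlier results of these data. Some steps of the pathway are not analysed here. By role, 7 genes encode enzymes of the mevalonate steps, 1 a branch enzyme and 11 enzymes of the sterol steps. A further 5 serve the control of sterol regulatory element binding proteins (SREBPs), 10 fatty acid synthesis, and 5 intracellular transport and storage. The efflux group has 3 genes, of which Mylip regulates lipoprotein uptake.

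The cells were primary T cells of strain C57BL/6NJ mice, and the file headers describe them as Th0, activated, at 16 hours. Th0 denotes helper cells activated without lineage-directing cytokines. The labels form 1 group with replicates 1 to 4, and give sex as not collected and age as unknown. All 4 biosamples carry the same donor identifier, and the number of animals is not given. Xist, which is transcribed from an inactive X chromosome, had 141 and 116 TPM in replicates 1 and 2 but 0.269 and 0.303 TPM in replicates 3 and 4, so the 4 samples were not repeats of a single RNA source. Every p-value below measures only the spread between these samples, which may be technical within either pair.

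Cholesterol is built from acetyl-CoA through mevalonate, farnesyl diphosphate, squalene and lanosterol, and the mevalonate steps also feed protein prenylation, dolichol and ubiquinone. When sterols in the endoplasmic reticulum are low, SCAP carries the SREBPs to the Golgi, where they are cut and released as transcription factors for sterol and fatty acid synthesis genes; INSIG proteins hold SCAP back when sterols are high. Liver X receptors (LXRs) respond to oxysterols and activate efflux genes such as Abca1 and Abcg1. T cells that leave quiescence need new membrane, and the SREBP pathway is known to be required for their growth after activation.

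Depth ran from 46192242 to 63313389 counted read pairs per library, and single members had between 0 (Soat2) and 74259 (Fasn) read pairs in a library. Levels are given as TPM, read pairs divided by the gene's exonic length and scaled to a fixed total, as mean ± SD over the 4 libraries (n = 4) or in the order of replicates 1 to 4. All 7 T cell markers reached 1 TPM in every library, with a summed level between 5130 and 5300 TPM and Trac, the constant region of the T cell receptor alpha chain, the highest at 1883 ± 25.6 TPM. All 5 activation markers did so too, led by Irf4 at 1452 ± 91.9 TPM. Of the CD8 T cell markers, Cd8b1 averaged 57.5 TPM and Cd8a 0.776 TPM. Macrophage markers summed to between 1.94 and 6.29 TPM, with 6 of 11 at 0 and Cd68 the highest at 4.08 TPM. The 5 B cell markers summed to between 2.45 and 9.36 TPM, all 4 neutrophil markers were at 0, and 5 of 6 adipocyte and hepatocyte markers were at 0, so the defining genes of other lipid-making cells were at or near 0.

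Sterol synthesis was expressed along its whole measured length. All 18 enzyme genes of the mevalonate and sterol steps reached 1 TPM in every library. Their means had a median of 34.9 TPM, and 39 of the 42 members did so. The median over 9840 nuclear protein-coding genes at that floor was 32.7 TPM, with quartiles at 11.8 and 80.0 TPM, so the sterol enzymes sat at the middle of the detected genes. Within that median they spread widely, from 4.61 TPM for Tm7sf2 to 199 TPM for Hmgcs1. In bulk RNA a level cannot be split into the number of expressing cells and the RNA per cell.

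Among the mevalonate steps, Hmgcs1, the cytosolic HMG-CoA synthase, stood far above the rest. Hmgcs1 lies at chr13:119690462-119708086 on the plus strand (mm10) and had 203, 199, 208 and 186 TPM. Acat2, which joins the acetyl units ahead of it, had 35.4, 38.1, 38.4 and 33.3 TPM. The 2 sets of values did not overlap, and Hmgcs1 was 5.49-fold higher on the means. Mvk, mevalonate kinase, had 26.4, 25.02, 30.8 and 32.4 TPM, with replicates 3 and 4 above replicates 1 and 2. The later kinase Pmvk averaged 65.0 ± 4.43 TPM and the decarboxylase Mvd 47.0 ± 1.41 TPM. The isomerase Idi1 averaged 20.1 ± 1.42 TPM. Fdps, which makes farnesyl diphosphate, was the lowest mevalonate gene at 13.6 ± 0.700 TPM, and its level is uncertain: 51.1% of the 50-base windows of its transcript also occur in annotated transcripts of 7 genes elsewhere, and 26.7% of its exonic length is overlapped on the same strand by Gm43738. Acat2 shared 45.9% of its windows, mainly with its paralogue Acat3, and Idi1 shared 21.3%, so these levels may also be too low. Ggps1, which makes geranylgeranyl diphosphate for prenylation, branches off here and had 41.2, 41.2, 44.5 and 38.1 TPM.

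The Hmgcs1 promoter is shown because it held the sterol element that SREBPs are known to bind, in its classic form. No other of the 32 members with a promoter window did so. The 250 bases upstream of the RefSeq gene start (chr13:119690101-119690350, plus strand, GRCm38.p6) are printed 5′ to 3′, with capitals for the sterol element and for CCAAT boxes, the binding motif of NF-Y, a partner of SREBPs; ATTGG is a CCAAT box read on the other strand.
Hmgcs1: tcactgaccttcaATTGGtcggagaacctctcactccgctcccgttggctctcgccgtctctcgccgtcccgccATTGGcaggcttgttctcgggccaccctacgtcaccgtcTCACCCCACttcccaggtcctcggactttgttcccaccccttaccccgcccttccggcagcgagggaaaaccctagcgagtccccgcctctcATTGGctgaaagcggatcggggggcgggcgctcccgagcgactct

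Promoter windows of 300 bases, from 250 before to 50 after a RefSeq start, were found for 32 of the 42 genes. Motifs were searched on both strands. Some genes, such as Srebf1 and Dhcr7, have several starts and so several windows. A gene was counted if any of its windows matched, for members and all genes alike. The classic sterol element TCACNCCAC occurred in 1 of 32 members, Hmgcs1, starting 137 bases upstream, against 1.44% of 27025 genes with a window. A second form, TCANCCCAC, overlaps the first and occurred in Hmgcs1, Elovl5 and Mylip, against 1.58% of all genes. CCAAT occurred in 26 of 32 members (81.3%), against 41.1% of all genes and 43.8% of the 7921 protein-coding genes among them that reached 1 TPM in every library. The longer CCAATC, which contains CCAAT and was chosen after the sequences were seen, occurred in 21 of 32 (65.6%), against 18.2% and 24.7%. Among sterol synthesis genes with a window, 14 of 15 held CCAAT and 13 held CCAATC. The GC box GGGCGG, a binding motif of SP1, was in 26 of 32 members, against 38.2% of all genes but 71.3% of detected coding genes. The E-box CACGTG was in 7 members (21.9%), against 12.5% of detected coding genes. The LXR repeat known as DR4, 2 AGGTCA sites 4 bases apart on the same strand, was in no member and in 4 of 27025 genes. These are matches of letters in a short window, not measured binding.

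**Figure D1:**
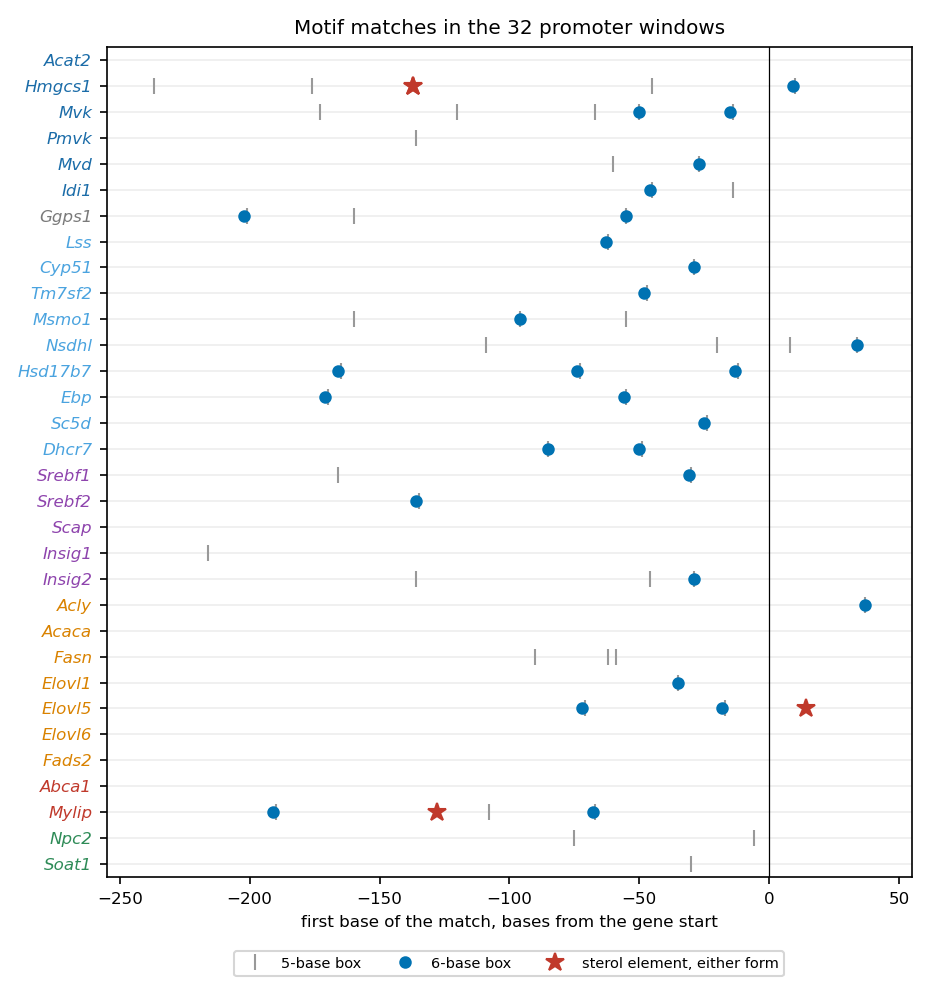
Positions of motif matches in the promoter windows of 32 genes, by gene (label colour gives the role). The x axis is the first base of the match in bases from the RefSeq start of its window. A gene with several starts has its windows overlaid on the same line. Ticks mark the 5-base box CCAAT, dots the 6-base box CCAATC and stars the sterol element in either form; most dots of the sterol enzymes lie within 100 bases upstream of the start, and the stars are in Hmgcs1, Elovl5 and Mylip.

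The windows below are shown because they carry the sequence that most of the sterol enzyme promoters had in common. Each is 30 bases around the CCAATC match nearest a RefSeq start of its gene (GRCm38.p6). It is read 5′ to 3′ on the strand that holds CCAATC, with the match in capitals. They lie at chr13:119690348-119690377 (Hmgcs1), chr5:114444242-114444271 (Mvk), chr8:122443432-122443461 (Mvd), chr13:8885548-8885577 (Idi1), chr10:76531530-76531559 (Lss), chr5:4104709-4104738 (Cyp51), chr19:6067881-6067910 (Tm7sf2), chr8:64733657-64733686 (Msmo1), chr1:169969201-169969230 (Hsd17b7), chrX:8193551-8193580 (Ebp), chr9:42264308-42264337 (Sc5d) and chr7:143830152-143830181 (Dhcr7). The plus strand is printed for Tm7sf2, Hsd17b7, Ebp and Sc5d and the minus strand for the others. The match of Nsdhl, the remaining gene of the 13, started 34 bases downstream, too near the end of its promoter window for the same context, and is not shown. The 12 matches shown started between 96 bases upstream and 9 bases downstream of a RefSeq start of their gene. For Dhcr7 this is a start inside the gene, which begins at chr7:143823145, and its other windows held no CCAAT. The printed windows of Tm7sf2, Msmo1, Idi1, Hsd17b7 and Cyp51 also lie inside the span of the counted gene, nearer its beginning. Tm7sf2, on the minus strand, begins at chr19:6068373. An A follows the motif in 9 of the 12, and the share over all CCAATC matches was not counted.
Hmgcs1: cggctacctctgCCAATCccgggactcaga
Mvk: gtcttcctgaggCCAATCagagagctggag
Mvd: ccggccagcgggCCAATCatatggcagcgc
Idi1: tgcccgggctcgCCAATCagctggaggcaa
Lss: atgcgagctcggCCAATCagagcatcacca
Cyp51: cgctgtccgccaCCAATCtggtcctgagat
Tm7sf2: ccagcacagtagCCAATCagcgctgggagg
Msmo1: ccttagcacggaCCAATCactgcacggcga
Hsd17b7: cgcgcacctcgaCCAATCaaggctcggccc
Ebp: gaatctgacgaaCCAATCagtacagggatc
Sc5d: gcaggcagccggCCAATCagcagccggcgc
Dhcr7: ggtcacagacgaCCAATCggaagtggattt

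Among the sterol steps, Cyp51, the lanosterol 14-demethylase, was the highest enzyme gene by this measure. Cyp51 (chr5:4081145-4104746, minus strand, mm10) had 133, 132, 139 and 127 TPM. Tm7sf2, one of the sterol C14 reductases that act directly after it, had 4.79, 5.32, 3.99 and 4.34 TPM. Cyp51 was above Tm7sf2 in 4 of 4 libraries, by 4.58 ± 0.17 on the log2(TPM + 1) scale and 28.8-fold on the means, the largest difference between neighbouring steps. With the longest coding transcript as length it was 3.64 log2, still the largest. Tm7sf2 overlaps Vps51 on the same strand over 15.3% of its exonic length, and a read pair that falls on both genes may be left uncounted. Squalene synthase Fdft1 averaged 49.5 ± 2.69 TPM and squalene epoxidase Sqle, a rate-limiting enzyme, 62.9 ± 2.10 TPM. Sqle was above Fdft1 in 4 of 4 libraries, by 0.34 log2 with the exonic length but by 1.01 with the longest annotated and 1.69 with the longest coding transcript. Both of these take Fdft1 at 3698 bases, more than the 2860 exonic bases counted, which lowers its level. They also take Sqle at 4467 and 2758 bases, fewer than its 5546 exonic bases, which raises the level of Sqle. Fdft1 also shared 10.9% of its 50-base windows with another annotated transcript. Lanosterol synthase Lss had 27.0, 27.8, 28.5 and 28.7 TPM.

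Of the demethylation complex that follows, no member differed clearly from its neighbour with the exonic length. Msmo1, the C4 methyl oxidase, averaged 24.1 ± 1.39 TPM, Nsdhl, the C4 decarboxylase, 23.8 ± 0.882 TPM and Hsd17b7, the 3-keto reductase, 23.7 ± 0.965 TPM. Their order was not the same in every library, and neither neighbouring difference exceeded its spread (0.02 ± 0.05 and 0.0018 ± 0.0563 log2, exact sign-flip p = 0.75 and 0.875). This depended on length: Msmo1 exceeded Nsdhl by 0.65 log2 with the longest annotated transcript, 1.17 with the longest coding transcript and 1.09 on log2 CPM, which uses no length. With the exonic length the last enzymes were somewhat higher: the sterol isomerase Ebp averaged 51.5 ± 2.74 TPM and the C5 desaturase Sc5d 36.2 ± 1.65 TPM. Hsd17b7 minus Ebp was -1.33 log2 with the longest coding transcript but 0.027 on log2 CPM. Msmo1 has 6144 exonic bases but 2044 in its longest coding transcript, and it was not compared with Ebp or Sc5d directly. Dhcr7, the 7-dehydrocholesterol reductase, had 32.2, 32.9, 36.5 and 32.5 TPM, with replicate 3 apart from the others. Nsdhl and Ebp lie on the X chromosome. Nsdhl had 24.4, 24.4, 23.7 and 22.5 TPM, so replicates 1 and 2, where Xist was high, lay above replicates 3 and 4. Ebp had 54.1, 52.0, 52.2 and 47.6 TPM, and there the pairs overlapped. Neither gene passed the test of spread described below, and the part of Xist status was not tested.

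**Figure D2:**
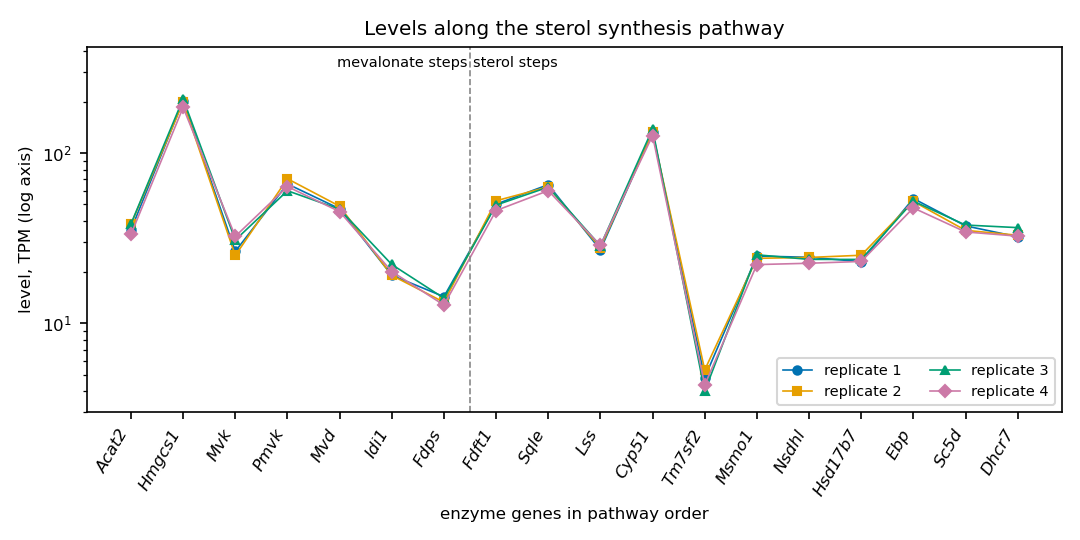
TPM on a log axis of the 18 sterol synthesis enzymes in pathway order, with 1 line per library; the dashed line parts mevalonate from sterol steps. Hmgcs1 and Cyp51 rise above 120 TPM in every library, Tm7sf2 falls to between 3.99 and 5.32 TPM, and the 4 lines keep close together at nearly every step.

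Differences between enzymes were larger than differences between libraries at most steps. Of 17 neighbouring pairs in pathway order, 15 kept their direction in 4 of 4 libraries, and 10 differed by more than 2-fold on the means. Neighbouring pairs share genes, and the share among pairs of other genes was not counted. The 15 is therefore not read as a trait of the pathway. Hmgcs1 exceeded Mvk by 2.76 ± 0.21 log2 (6.94-fold), and Cyp51 exceeded Lss by 2.20 ± 0.07 log2 (4.74-fold). Sqle exceeded Lss 2.25-fold, and Fdft1 exceeded Fdps 3.63-fold, with the shared windows of Fdps beside it. With 4 libraries, the exact two-sided sign-flip permutation test cannot give a p below 0.13, and these 15 pairs were at that limit (Benjamini-Hochberg adjusted p = 0.142 over the 17 pairs). Each value depends on the exonic length used: with the longest coding transcript, a choice added after the data were seen, Hmgcs1 exceeded Mvk by 1.98 log2 and Cyp51 exceeded Lss by 1.18 log2, while Fdps exceeded Idi1 by 0.80 log2 and Fdps and Fdft1 came within 0.11 log2.

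The regulators of the pathway had a higher median than its enzymes, with wide overlap. All 5 SREBP control genes were detected, and their median was 93.1 TPM, yet Insig2 lay below 17 of the 18 sterol synthesis enzymes and Hmgcs1 and Cyp51 lay above every control gene except Srebf2. Srebf2, which encodes the SREBP that mainly drives sterol genes, lies at chr15:82147266-82205376 on the plus strand and had 290, 313, 319 and 347 TPM, above 94.8% of detected protein-coding genes. Srebf1, whose product mainly drives fatty acid genes, had 81.9, 87.1, 84.0 and 94.8 TPM. The genes did not overlap in any library: Srebf2 was higher by 1.85 ± 0.04 log2 (3.65-fold). Scap, the escort of both SREBPs, had 94.0, 93.0, 94.7 and 103 TPM. Insig1, which retains SCAP and is itself an SREBP target, had 95.1, 97.0, 92.9 and 87.5 TPM, and Insig2, its paralogue, averaged 13.4 ± 0.638 TPM. Insig1 was higher by 2.71 ± 0.11 log2 (6.94-fold) in 4 of 4 libraries. In replicate 4, Srebf1, Srebf2 and Scap had their highest level and Insig1 its lowest.

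Fatty acid synthesis genes varied widely in level, with Acly and Fasn at the top. Acly, ATP citrate lyase, which makes cytosolic acetyl-CoA, had 365, 349, 388 and 384 TPM. Fasn, fatty acid synthase, had 337, 353, 360 and 424 TPM, with replicate 4 above the rest. Both lay above at least 95.7% of detected coding genes. Acaca, acetyl-CoA carboxylase 1, which makes the malonyl-CoA between them, averaged 24.3 ± 1.94 TPM, so that Acly was 15.3-fold and Fasn 15.2-fold higher on the means. Acaca is uncertain in this comparison, since 52.6% of its 50-base windows also occur in the annotated transcript Gm5182 elsewhere. On log2 CPM the differences were 2.23 for Acly and 3.27 for Fasn, and with the longest coding transcript 3.31 and 3.16.

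The Fasn promoter is shown because Fasn was, with Acly, at the top of the fatty acid synthesis genes. It held neither form of the sterol element that Hmgcs1 had. The 250 bases before the RefSeq start (chr11:120824548-120824797, minus strand, GRCm38.p6) are read 5′ to 3′ along the gene, with CCAAT boxes of either strand in capitals; 2 boxes on opposite strands overlap in the longer capital run.
Fasn: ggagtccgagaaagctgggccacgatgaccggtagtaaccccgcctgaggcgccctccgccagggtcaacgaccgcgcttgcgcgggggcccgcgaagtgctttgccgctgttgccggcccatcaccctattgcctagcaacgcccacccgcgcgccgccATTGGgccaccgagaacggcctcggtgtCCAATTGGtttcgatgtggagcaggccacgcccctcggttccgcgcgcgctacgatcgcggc

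Elongases and desaturases differed by paralogue. Elovl1, which elongates saturated very long chains, averaged 125 ± 4.26 TPM, Elovl5, which elongates polyunsaturated chains, 78.9 ± 2.93 TPM, and Elovl6, which elongates palmitate, 24.5 ± 0.836 TPM, in that order in 4 of 4 libraries. Of the stearoyl-CoA desaturases, Scd2 had 86.0, 92.3, 103 and 88.9 TPM. Scd1 had 0.809, 1.08, 0.965 and 0.816 TPM, from 53 to 88 read pairs, so it passed 1 TPM in replicate 2 alone. Scd2 was therefore the stearoyl-CoA desaturase of these libraries by level, 101-fold above Scd1 on the means and 5.61 ± 0.10 on the log2(TPM + 1) scale. The transcripts shared few 50-base windows with other genes, 3.79% for Scd2 and 4.66% for Scd1.

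Of the polyunsaturated desaturases, Fads1 averaged 34.0 ± 2.68 TPM. Fads2 had 2.02, 4.35, 4.64 and 1.83 TPM, from 49, 97, 132 and 37 read pairs, and was below Fads1 by 3.12 ± 0.50 log2 in 4 of 4 libraries. Replicates 2 and 3 had more than 2-fold the Fads2 level of replicates 1 and 4, the widest relative spread of the members that were detected in every library.

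Efflux genes were low. Abca1, the cholesterol and phospholipid exporter, had 1.06, 1.10, 0.737 and 1.30 TPM. Abcg1, which passes cholesterol to lipoprotein particles, had 8.69, 8.93, 8.22 and 9.14 TPM. Mylip, a ubiquitin ligase that LXRs induce and that limits lipoprotein uptake, had 10.1, 10.6, 9.80 and 11.3 TPM. All 3 were lowest in replicate 3 and highest in replicate 4, while Abcg1 was 8.33-fold above Abca1 on the means. On the log2(TPM + 1) scale that difference was 2.26 ± 0.11 with the exonic length and 1.61 with the longest coding transcript. That transcript has 5832 bases, more than the 4066 exonic bases counted for Abcg1, which lowers its level.

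Set against sterol synthesis, efflux was lower in each library. The median log2(TPM + 1) of the 18 synthesis genes minus that of the 3 efflux genes was 1.84, 1.82, 2.05 and 1.74. The mean was 1.86 ± 0.13, a 3.64-fold difference in TPM + 1. By means, 17 of 18 synthesis genes lay above the highest efflux gene, and the remaining one, Tm7sf2, lay below Abcg1 and Mylip. Mylip regulates uptake and exports nothing itself; without it the difference was 2.99 log2, and with the mean over genes in place of the median it was 2.59. With other choices of length it was 2.56 (longest annotated transcript) or 2.73 (longest coding transcript), both with Abcg1 longer than the exons counted. It is a difference of levels between genes in 1 condition and not a change.

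**Figure D3:**
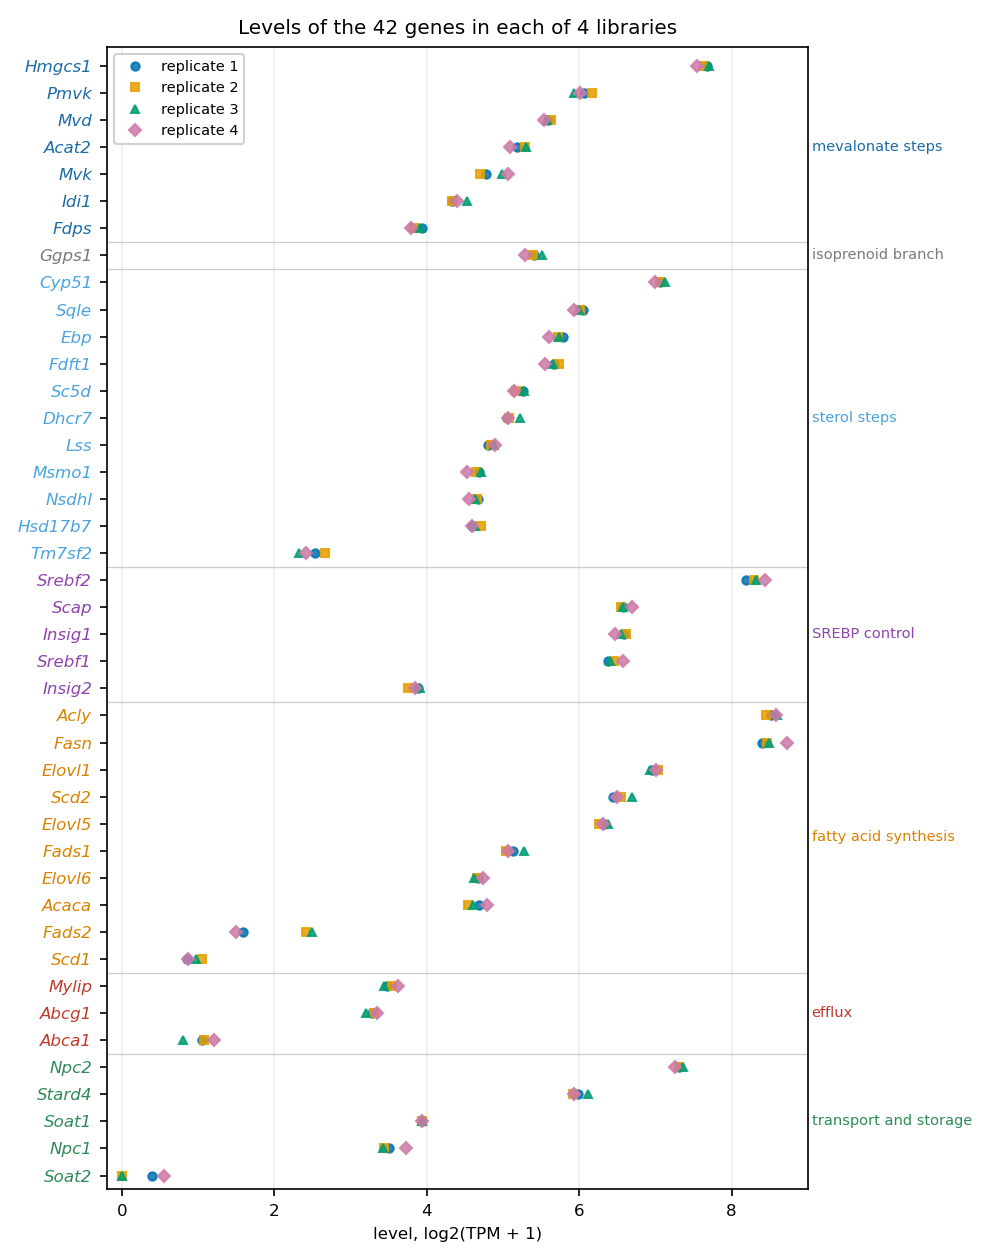
Level of each of the 42 genes as log2(TPM + 1), with 1 symbol per library and genes grouped by role. Symbols of a gene lie close together for nearly all genes, Srebf2, Acly and Fasn are at the right of the scale, and Scd1, Soat2 and Abca1 lie at its left.

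Genes of intracellular transport and storage covered the whole range. Npc2, the soluble cholesterol carrier of the lysosome, averaged 158 ± 5.04 TPM, whereas Npc1, the membrane protein that receives its cholesterol, had 10.4, 9.80, 9.75 and 12.3 TPM, 15.0-fold lower on the means. Npc2 exceeded Npc1 by 3.79 ± 0.18 log2 with the exonic length, but by 2.78 with the longest coding transcript and 2.16 on log2 CPM. Stard4, a cytosolic sterol carrier and SREBP target, averaged 62.5 ± 4.06 TPM. Soat1, which esterifies cholesterol for storage, had 14.4, 14.3, 14.3 and 14.4 TPM, an SD of 0.0383 TPM that was the smallest of all members. Soat2, the paralogue known from liver and intestine, had 11, 0, 0 and 14 read pairs. The counts of 0 in replicates 2 and 3 allow up to 0.0915 and 0.0717 TPM (3 counts, counting error only), below the 0.308 and 0.470 TPM of replicates 1 and 4. All 12 pairs of partner genes, Soat1 and Soat2 included, kept their direction in 4 of 4 libraries, at the smallest p of 0.13 that the exact test allows (also 0.13 after adjustment over 12 pairs). The share among pairs of other genes was not counted here either.

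The test of spread between libraries called no member. Each gene's spread was compared with genes of like abundance by edgeR's quasi-likelihood residual test, fitted on all 12285 genes with enough counts. Soat2 did not pass the count filter, and of the 41 other members 0 passed an adjusted p of 0.05, against 28 genes in all (0.228%). At that share, 41 genes would hold fewer than 1 call. At an unadjusted p under 0.05 the same edgeR fit gave 3 members and 666 genes (5.42%), and 0 members were dispersion outliers in DESeq2. The 3 were Fasn, Fads2 and Scd2, with edgeR adjusted p = 0.791, 0.904 and 0.913. The median SD of log2 CPM was 0.0881 over the members and 0.102 over all genes tested. Relative to the spread predicted at its abundance, the median gene of the set had a ratio of 1.09 and the median gene tested 0.83.

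**Figure D4:**
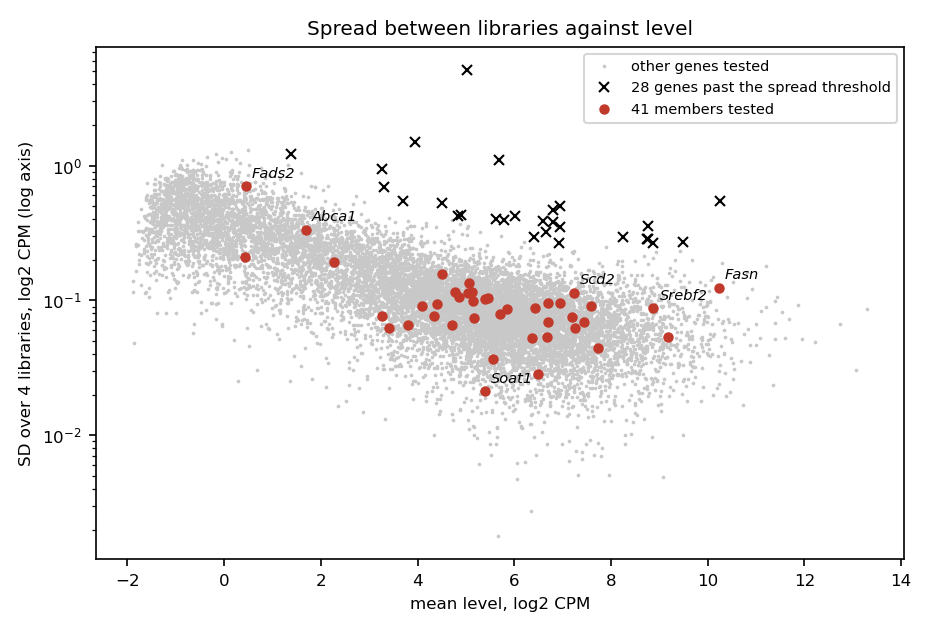
SD of log2 CPM over the 4 libraries (log axis) against mean log2 CPM for all genes tested; members are filled circles and the 28 genes past the threshold are crosses. The members lie inside the cloud of other genes, with Fads2 highest at an SD of 0.70 and Soat1 lowest at 0.02.

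Small deviations ran in the same direction in many sterol enzymes. On log2 CPM, 13 of the 18 sterol synthesis genes (72.2%) had their lowest value in replicate 4, against 29.1% of all genes tested. Of these 18 genes, 2 (Mvk and Lss) were above their own mean in replicate 4, and their median deviation there was -0.10 log2. Hmgcs1 deviated by -0.13 log2 in replicate 4. Fasn, Srebf2 and Scap deviated the other way in the same library, by 0.18, 0.10 and 0.07 log2. Over all 41 members, 22 were lowest in replicate 4, with a median deviation of -0.07 log2. None of these genes passed the test of spread, which was tried only on simulated extra SDs of 0.5 log2 or more.

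Transcript length moved with replicate 4. The median deviation there over genes tested was -0.06, -0.02, 0.01 and 0.06 log2 across 4 equal groups from the shortest to the longest transcripts, and 6 sterol synthesis genes were in the shortest group and 3 in the longest, against 0 and 6 of the fatty acid synthesis genes. Across 4 such groups of GC content it ran from -0.0049 to 0.02. After a joint trend with length and GC was removed, a step added after the data were seen, 14 of 18 sterol synthesis genes were lowest in replicate 4, against 30.0% of all genes, and 17 of 18 lay below their own mean. Replicate 4 also had the lowest depth, and the part of depth in these deviations was not tested.

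**Figure D5:**
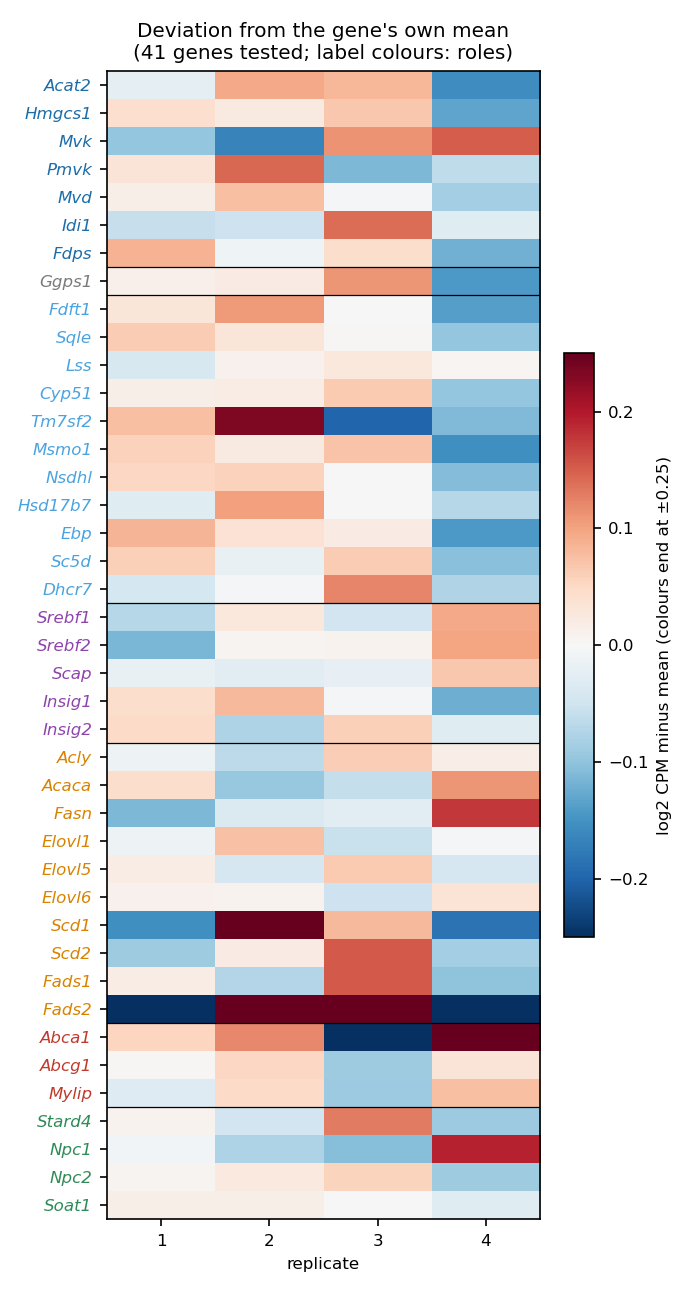
Deviation of log2 CPM from the gene's own mean for 41 members by replicate; blue is below and red above the mean, and colours end at ±0.25 log2. The column of replicate 4 is blue for most mevalonate and sterol enzymes. It is red for Mvk, Srebf1, Srebf2, Scap, Acaca, Fasn, Abca1, Mylip and Npc1, and a paler red for some others.

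Genes around the pathway, from lists of other functions, gave the setting of these levels. All 13 isoprenoid-using genes reached 1 TPM in each library (median 67.5 TPM). The highest were Rabggtb, a subunit of the Rab geranylgeranyl transferase, at 184 ± 7.41 TPM and Rce1, the CAAX protease, at 119 ± 4.98 TPM. All 10 genes of SREBP cleavage and sterol-dependent degradation did so too (median 36.4 TPM), and the highest was Aup1 at 141 ± 3.85 TPM. Of 14 genes of LXR signalling and oxysterols, 5 were detected. Nr1h2, which encodes LXR beta, had 143 ± 12.1 TPM and the LXR partner Rxrb 106 ± 6.40 TPM, whereas Nr1h3, which encodes LXR alpha, had 0.544 ± 0.108 TPM, and 4 genes of the list had no read pair in any library.

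Of 14 sterol transfer genes, 13 were detected, led by Gramd1b at 233 ± 14.8 TPM and Gramd1a at 170 ± 6.80 TPM, both of which carry plasma membrane cholesterol to the endoplasmic reticulum. Of 24 other fatty acid synthesis and activation genes, 14 were detected. Acsl5, a long-chain acyl-CoA synthetase, had 340 ± 14.9 TPM and Hacd3, a dehydratase of chain elongation, 168 ± 3.45 TPM. Transcripts of fatty acid oxidation genes were present beside those of synthesis. Of 20 such genes 17 were detected (median of the list 26.1 TPM), led by Acadvl at 139 ± 5.23 TPM and Etfa at 133 ± 5.67 TPM. Of 14 triglyceride and lipid droplet genes, 13 were detected at a lower median of 13.2 TPM, led by the acyltransferases Agpat1 at 125 ± 7.25 TPM and Agpat3 at 66.9 ± 1.11 TPM. By the same edgeR test of spread, 0 genes of these 7 lists passed the threshold (smallest adjusted p = 0.850, Plin2), of 92 tested. At the share of 0.228% over all genes, fewer than 1 call would fall among 92 genes, so the count says nothing particular about these lists.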

How the data were processed

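RNA was measured in 4 libraries of 1 group. The deposited values are unnormalized counts of fragments for each gene. Per the file headers they came from STAR alignments (version not given in the sources used here) counted by featureCounts 1.4.6-p4 on exons of GENCODE M13, with strand setting 2, and the labels name mm10. Whether the libraries were total RNA, as the assay is titled, or polyA+, as the linked protocol is titled, was not settled. Per the headers no multi-mapping option was set, so genes with near-identical copies can lose reads.

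TPM was computed from counts and the deposited exonic length, with symbols from GENCODE M21 (224 of 50600 identifiers unmatched). Detection means at least 1 TPM in every library, and the pseudocount was 1. Depth was 46192242 to 63313389 read pairs, and a count of 0 allows 3 counts. The test of spread used R 4.3.3 and edgeR 4.0.16 (TMM, filterByExpr, intercept only, robust quasi-likelihood, upper tail of F, 13.9 prior degrees of freedom, Benjamini-Hochberg adjustment at 0.05), with DESeq2 1.42.0 as an alternative; log2 CPM used a prior count of 2. Tested on simulated counts of the spread between the 4 libraries (12160 genes), the test called 56 of 100 genes given 0.5 log2 of extra SD, 88 of 100 given 1 log2, and 3 of 11960 others. The altered genes were drawn from those with a mean count of at least 100, and smaller extra SDs were not simulated. Pairs of genes were compared within libraries on log2(TPM + 1) by exact two-sided sign-flip permutation in 2 families, of 17 and 12 pairs. Promoters came from RefSeq (GRCm38.p6), and shared sequence was counted in 50-base windows of the longest coding transcript of M21. Other steps ran in Python 3.11.15 with pandas 2.3.3, scipy 1.17.1, numpy 2.4.6 and, for figures, matplotlib 3.10.9.

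The members and lists were chosen with earlier results of these data known. All members are described by role, and of the other lists the 2 genes with the highest mean TPM, of which 1 is not reported here; Nr1h3, Cd8a and Plin2 were named after their values were seen. Alternatives covered scaling, length, floors, pseudocounts, filters, the fit and each replicate left out.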

Additional observations from a re-analysis of the deposited data

Results flagged for a closer look

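Of 42 profiles of TPM over the 4 libraries, 2 had a library whose gap to the nearest other exceeded Dixon's critical share of the range for 4 samples, where chance marks about 1 group in 20. Dhcr7 had its highest level, 36.5 TPM, in replicate 3, with a gap of 0.839 of the range. Scap had its highest level, 102.9 TPM, in replicate 4, with a gap at the critical value. The genes' own spread did not pass the edgeR test in either case (adjusted p = 0.996 for each), against 28 of 12285 genes.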

How the results depend on the processing

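Of 360 recomputed values, 340 were classed as unchanged, and the others are given here. Pair differences had to keep their sign, counts to stay within 1.5-fold, and the edgeR spread test to keep its outcome. Synthesis minus efflux and the median deviations had to keep their sign and stay within 1 SD. Members detected became 37 at a floor of 5 TPM and 41 at 0.5 TPM. Neighbouring pairs with a constant direction became 16 on CPM and with the longest coding transcript, and 17 with the longest annotated transcript. Leaving out length (CPM) gave -0.81 for Nsdhl minus Hsd17b7, 0.027 for Hsd17b7 minus Ebp, -0.55 for Ebp minus Sc5d and -0.14 for Sc5d minus Dhcr7 (log2). The longest annotated transcript gave -0.89 for Sc5d minus Dhcr7. The longest coding transcript, added after the data were seen, gave -0.80 for Idi1 minus Fdps, 0.11 for Fdps minus Fdft1 and -0.89 for Sc5d minus Dhcr7. Both transcript lengths are from GENCODE M21, whereas the counts used exons of M13. For some genes, among them Abcg1, Fdft1, Fads2 and Ggps1, the transcript is longer than the exons counted, which lowers their levels. With 1 replicate left out, Nsdhl minus Hsd17b7 ran from -0.025 (without replicate 1) to 0.016, and Msmo1 minus Nsdhl from -0.0063 (without replicate 3) to 0.031, both inside their spread. Of the 29 pairs, 11 moved by more than 1.5-fold with the longest coding transcript, 8 with the longest annotated transcript and 17 on CPM; Msmo1 minus Nsdhl then became 1.17, 0.65 and 1.09, and Fdft1 minus Sqle -1.69, -1.01 and -1.28. Sterol synthesis minus efflux was 2.56 (longest annotated transcript), 2.73 (longest coding transcript), 2.59 (mean over genes), 2.99 (without Mylip) and 1.80 to 1.90 with 1 replicate left out. The 28 genes past the spread threshold became 142 with no count filter, 15 with a non-robust fit, 68 as DESeq2 outliers and 14 to 27 with 1 replicate left out (14 without replicate 3); 0 members passed under any of them. With 1 library left out, the members' median deviation ran from -0.0068 (without replicate 4) to 0.013 in replicate 1 and from -0.0034 (without replicate 4) to 0.024 in replicate 2; the mean is then taken over the remaining libraries. Depth limits Soat2, Fads2 and Scd1 most. No paired analysis was possible because there was 1 group.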
